A study of Bos taurus with 20 samples.

Results

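The tan module is a set of 119 genes that the study grouped because their levels moved together in maternal blood. Membership was taken from the study's supplementary list of modules, by Entrez identifier and module name only. All 119 genes were found among the 37063 genes of the count files, and 115 of them were among the 16206 that passed a filter of 10 or more counts in 5 or more cows. The module was built on coexpression in these same cows and retained for its correlation with calf birth weight (BW), so its coherence and its relation to BW are given as descriptions, without a test.

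Whole blood was drawn on day 63 of gestation from 20 recipients, each carrying a female fetus from an in vitro produced embryo of a beef dam. The study's methods describe lactating dairy recipients, its overview of the data lists Angus recipients of mixed age, and the labels give no breed or age. Each cow provided 1 library. Calf BW at parturition ran from 30 to 72.5 kg with a mean of 45.0 ± 10.1 kg (SD, n = 20), there was no untreated or non-pregnant group, and each cow is named here by the weight of its calf. Total counts ran from 24632077 to 39892111 per library with a median of 33412740. The blood was not sorted, so fewer cells of a type and less RNA per cell cannot be told apart in any value below.

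A coexpression module gathers genes that rise and fall together across individuals. In unsorted blood such genes often follow the share of a leukocyte type. T cells recognise antigen through a receptor of alpha and beta or of gamma and delta chains carried with the CD3 proteins. Cattle are known for abundant circulating gamma-delta T cells, many of which carry WC1 proteins, scavenger receptors encoded by a gene cluster. Natural killer (NK) cells use killer cell immunoglobulin-like receptors (KIR), a family also expanded in cattle.

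The module held 101 protein-coding genes, 9 long non-coding RNAs, 7 pseudogenes, 1 miscellaneous RNA and TRGC3, a constant region of the gamma T cell receptor chain. Of the 119 members, 25 carried only a LOC name. Such names made up 20.9% of the tested members and 16.9% of all tested genes. Levels are in CPM, a gene's counts per 1000000 counts of its library, with TMM scaling and are not corrected for gene length, so they are compared between cows and not between genes. The median CPM over the cows was below 1 for 24 members, at least 10 for 69 and at least 100 for 19. All 20 cows had a count of 97 members. Together the members took between 6818 and 9948 counts per 1000000 of the library total, here without TMM scaling. Of the members' counts 27.5% came from SRGN, which encodes serglycin, the proteoglycan core of leukocyte secretory granules.

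The range between cows differed widely between members. In 57 of the 119 members the highest CPM was less than 2 times the lowest, and in 22 at least 1 cow had no count. SRGN ran from 1804 CPM in the cow of the 43 kg calf through a median of 2193 to 2820 in the cow of the 56 kg calf. The other 4 members with the most counts were SMC1A, a cohesin ring subunit, PPIG, a nuclear peptidyl-prolyl isomerase, PPP2R5C, a regulatory subunit of protein phosphatase 2A, and LOC100336282. SMC1A ran from 389 to 590 CPM with a median of 463, and PPIG from 356 to 549 with a median of 407. PPP2R5C ran from 367 to 540 CPM with a median of 407. All 3 were highest in the cow of the 56 kg calf.

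The eigengene, the first principal component of the members' variance-stabilized and standardized counts, held 38.9% of their variance. It was highest at 0.418 in the cow of the 56 kg calf, followed by 0.299 in that of the 49.5 kg calf and 0.271 in that of the 47.4 kg calf. It was lowest at -0.375 in the cow of the 43 kg calf, followed by -0.334, -0.327 and -0.261 in those of the 36, 50 and 30 kg calves. The cow of the 72.5 kg calf stood at 0.255. The cows at the bottom therefore included calves from both sides of the mean BW. Single members followed the same cows. The highest value lay with the 56 kg calf's recipient for 34 members and with the 47.4 kg calf's for 26. Among the 97 members counted in every cow, the lowest value lay in the cow of the 43 kg calf for 22, of the 50 kg calf for 19, of the 36 kg calf for 16 and of the 30 kg calf for 13.

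**Figure D1:**
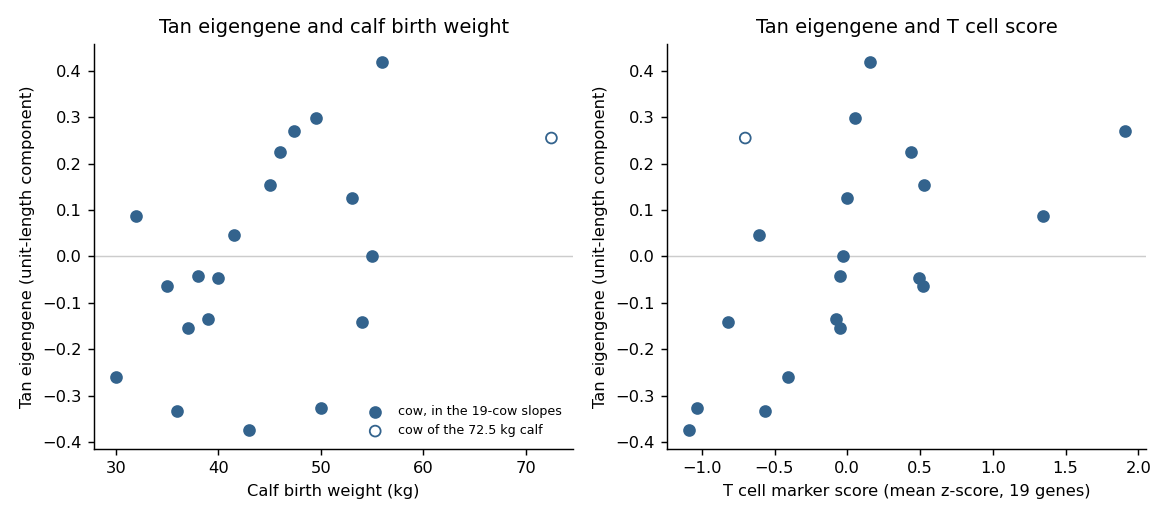
Tan eigengene (vertical axis, component of unit length) of each of the 20 cows against calf BW in kg (left) and against the T cell marker score (right, mean z-score of 19 genes). Points are cows and the open point is the cow of the 72.5 kg calf, which has a high eigengene beside a T cell score of -0.701.

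The correlation of a member with the eigengene (kME) had a median of 0.64, was above 0.5 for 88 members and above 0.8 for 11. WWP1, a HECT-type ubiquitin ligase, had the highest kME at 0.90 and ran from 77.1 CPM in the cow of the 43 kg calf through a median of 96.9 to 125 in that of the 56 kg calf. ZMYND11, a reader of methylated histone H3, followed at 0.87 with 144 to 215 CPM and a median of 165. MDM2, the ubiquitin ligase that restrains the p53 tumour suppressor, stood at 0.83 with 136 to 198 CPM and a median of 156. All 3 were highest in the cow of the 56 kg calf.

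LOC100336282 also had a kME of 0.83, with 232 CPM in the cow of the 43 kg calf, a median of 297 and 347 in that of the 47.4 kg calf. SCML4, a Polycomb-group protein, had a kME of 0.83 and ran from 93.2 to 152 CPM with a median of 121. ARAP2, a GTPase-activating protein for Arf proteins, had 0.82 and ran from 70.1 to 112 CPM with a median of 98.0. All 3 were lowest in the cow of the 43 kg calf.

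PGM3, an enzyme of UDP-N-acetylglucosamine synthesis, had a kME of 0.81 and ran from 11.3 to 20.6 CPM with a median of 13.7. PDE4D, a phosphodiesterase that breaks down cyclic AMP, had 0.81 and ran from 35.9 to 55.1 CPM with a median of 40.6. G3BP2, an RNA-binding protein of stress granules, had 0.81 and ran from 201 to 295 CPM with a median of 252. Each of the 3 was highest in the cow of the 56 kg calf. The remaining gene of the first 10 was TBX18, a T-box transcription factor with a kME of 0.82, which had no count in 11 of the 20 cows and at most 1.19 CPM, so it failed the filter. A count of 0 allows up to 3 counts, or 0.0752 to 0.122 CPM at these depths, counting error only.

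Connectivity by signed biweight midcorrelation at a power of 7 gave a similar centre, with 8 of the first 10 genes shared. WWP1 ranked 1, SCML4 2, ZMYND11 3 and LOC100336282 4. The median correlation between 2 members was 0.37, and 93.4% of member pairs correlated positively. Beside the members, 9.85% of all tested genes correlated above 0.5 with the eigengene and 9.02% below -0.5.

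By kME, a Pearson correlation, the edge of the module held genes that hardly followed its eigengene. CELF4, a neuronal-type RNA-binding protein, had a kME of -0.03, with no count in 4 cows and a median of 0.204 CPM. It reached 5.39 CPM in the cow of the 30 kg calf, against 0.943 in the next highest cow. CELF3, of the same family, had 0.08, with no count in 10 cows. It reached 1.53 CPM in the cow of the 30 kg calf, against 0.530 in the next. FBXL16, an F-box protein, had 0.16 and at most 1.85 CPM, and was also highest in the cow of the 30 kg calf. OLFM3, a secreted olfactomedin protein, had 0.26 and at most 1.71 CPM. By biweight midcorrelation with the eigengene CELF4 had 0.32, CELF3 0.37, FBXL16 0.39 and OLFM3 0.28. The lowest member by that measure was LOC132342103 at 0.19. These values are members just inside the module.

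Many genes outside the list also followed the eigengene. Among tested non-members, 502 correlated with it above the members' median kME and 47 above 0.8. RNF125, a ubiquitin ligase of innate signalling, reached 0.93 and ran from 57.4 to 84.0 CPM with a median of 65.9. TMEM106B, a lysosomal membrane protein, reached 0.89, and ATXN7L1, FNDC3A and ANKIB1 each reached 0.87. At the other end IRF5, an interferon regulatory factor of myeloid and B cells, stood at -0.90, with 259 to 463 CPM and a median of 340. These 6 genes were in none of the study's 4 modules tied to BW, and their values use the eigengene of the same cows. The study clustered only its most variable genes, and whether these 6 were among them was not checked. The eigengene also followed the first principal component of all tested genes, which held 15.7% of their variance, with r = 0.77 and rho = 0.77 over 20 cows, both measures coming from the same libraries.

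**Figure D2:**
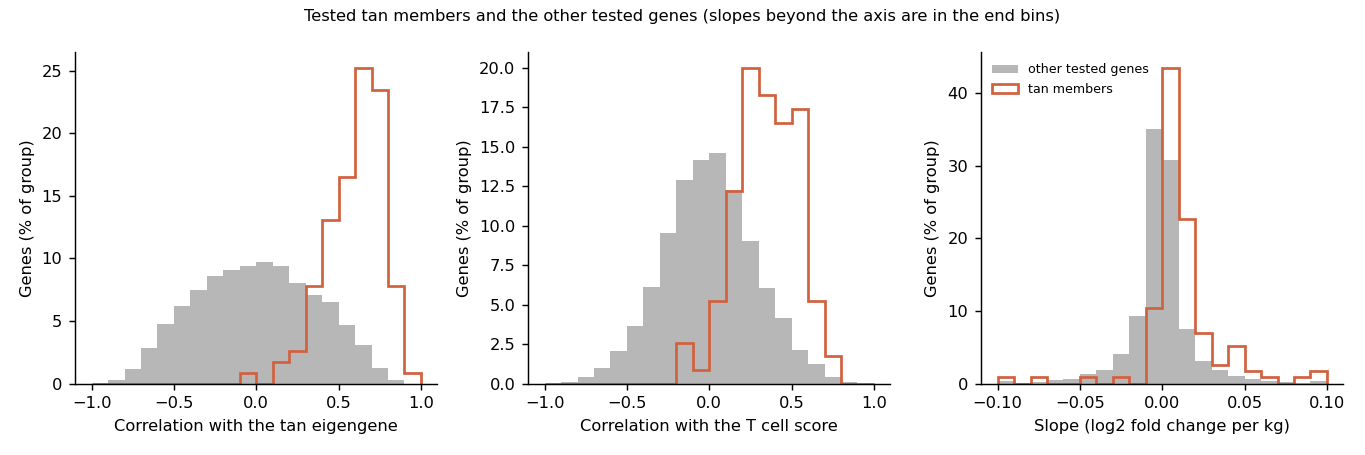
Distribution over tested genes, as percent of each group, of the correlation with the tan eigengene (left), the correlation with the T cell score (middle) and the slope on calf BW in log2 per kg (right). Orange outlines are the tan members and grey bars the other tested genes, and the members lie to the right in each panel, which for the first and the third follows from how they were chosen.

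Several members lie in lymphocyte receptor gene clusters. Gene order was read from the ARS-UCD2.0 annotation, a different assembly from that of the counts, so no coordinates are given. Within 5 genes of a T or B cell receptor segment, a WC1 gene or a KIR gene lay 7 of the 112 tested members placed on a chromosome, which is 6.25%, against 0.796% of the 16078 placed tested genes. The neighbourhoods were chosen after the members' names were seen, and genes of 1 cluster are not independent.

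LOC100336282 spans 13 variable segments and 2 constant regions on chromosome 10, next to DAD1, which is the place of the T cell receptor alpha and delta genes. Reads of these overlapping genes cannot be told apart here. TRGC3 lies on chromosome 4 beside TRGC4 and the member LSM8, a subunit of the nuclear LSM ring that binds U6 RNA. TRGC3 ran from 13.3 CPM in the 36 kg calf's recipient through a median of 20.3 to 74.2 in the cow of the 47.4 kg calf, while the next highest cow reached 36.1. LSM8 ran from 17.3 to 32.9 CPM with a median of 23.9 and was highest in the same cow, and the pair correlated with r = 0.75 and rho = 0.74.

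LOC751788 and LOC112446753 are neighbours in the WC1 cluster of chromosome 5, beside WC-7 and near WC1-12. LOC751788, listed as a miscellaneous RNA, had a kME of 0.76 and ran from 18.96 to 60.0 CPM with a median of 31.3. The long non-coding LOC112446753 had a kME of 0.42 and ran from 4.75 to 11.3 CPM with a median of 8.16. Despite their place side by side, the pair correlated with only r = 0.16.

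KIR3DS1 and KIR2DS1 lie in the KIR cluster of chromosome 18, near NCR1, an activating NK receptor gene. KIR3DS1 ran from 6.59 CPM in the cow of the 30 kg calf through a median of 20.3 to 44.8 in the cow of the 72.5 kg calf. KIR2DS1 ran from 1.43 through a median of 3.24 to 8.70 CPM, lowest for the 36 kg calf and highest for the 46 kg calf. They correlated with each other with r = 0.77, and with NCR1 at r = 0.66 for KIR3DS1 and 0.69 for KIR2DS1. Near-identical copies in the KIR, WC1 and gamma-chain clusters can share reads, so values of single genes there are uncertain. In that annotation 38 members overlap another gene, among them AHCTF1, PDE4D, SRGN, MAF and SLC7A6, and reads in the overlap may belong to either where the counting ignored strand. The pseudogene LOC132344460, listed on chromosome Y near AKAP17A, had counts in all 20 cows at 0.0402 to 1.70 CPM. Every cow and fetus was female, and whether these reads come from a like sequence on chromosome X was not checked.

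**Figure D3:**
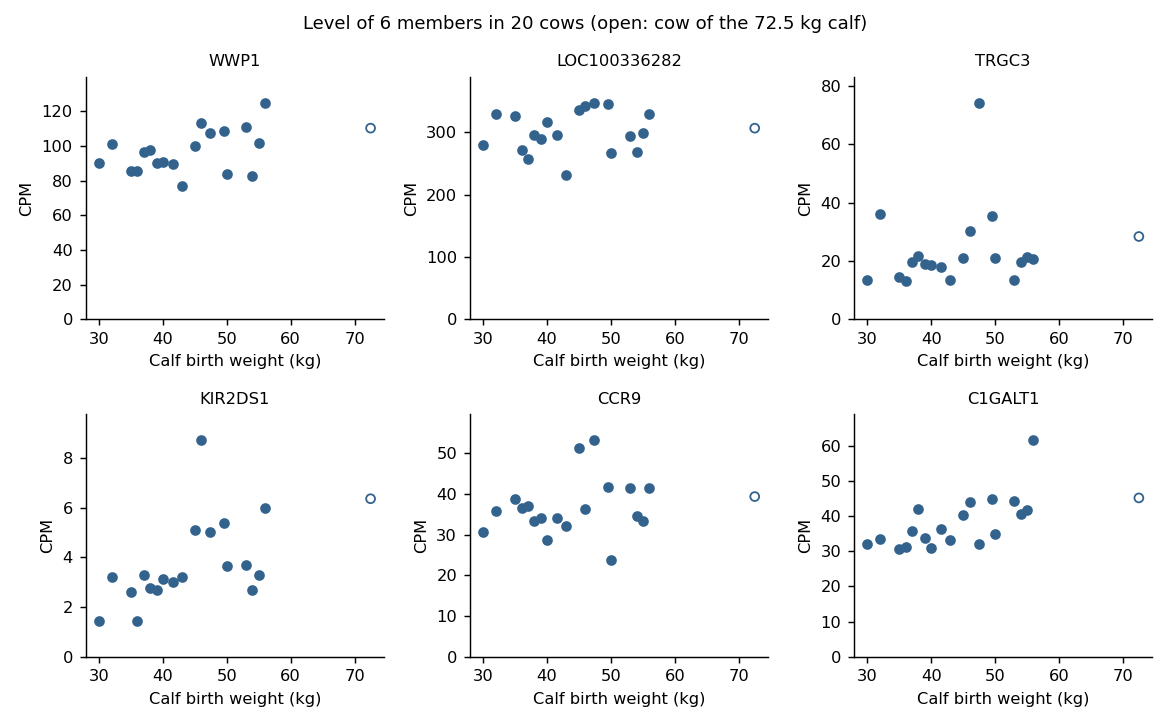
CPM of 6 members in each of 20 cows (points) against calf BW in kg, with axes from 0. WWP1 is the first hub, LOC100336282 and TRGC3 lie at T cell receptor genes, KIR2DS1 is a KIR gene, CCR9 a chemokine receptor and C1GALT1 a glycosyltransferase, and TRGC3 shows 1 cow at 74.2 CPM.

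By role, members used by T cells ranged from receptor regulators to homing receptors. THEMIS, a regulator of T cell receptor signals in thymocytes, ran from 21.2 to 39.9 CPM with a median of 31.5 and a kME of 0.66. ICOS, an inducible costimulator, ran from 10.3 to 19.9 CPM with a median of 13.4 and a kME of 0.43. It correlated with CD28 at r = 0.61 and with CTLA4 at 0.31. CD84, a receptor of the SLAM family, ran from 146 to 226 CPM with a median of 196 and a kME of 0.70. All 3 thus varied by less than 2 times between cows.

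MAF and IKZF2, which encodes Helios, are transcription factors of T cells. MAF ran from 40.8 to 68.6 CPM with a median of 52.1 and a kME of 0.73, and IKZF2 from 31.2 to 50.2 CPM with a median of 39.3 and a kME of 0.58. SLC7A6, an amino acid transporter subunit, ran from 100.2 to 149 CPM with a median of 135 and a kME of 0.75. CCR9, the chemokine receptor that directs T cells to the small intestine, ran from 23.8 CPM in the cow of the 50 kg calf through a median of 36.0 to 53.1 in that of the 47.4 kg calf. KCNA3, the voltage-gated potassium channel of T cells, ran from 73.6 to 123 CPM with a median of 92.6. MAF, IKZF2, SLC7A6, CCR9 and KCNA3 were each highest in the cow of the 47.4 kg calf, which also had the highest T cell score, 1.91.

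The lineages the module followed were read from 17 lists of marker genes, each scored as the mean z-score of its tested genes with tan members taken out. The eigengene rose with the scores of CD8 T cells (r = 0.58, rho = 0.63), T cells (r = 0.55, rho = 0.60) and gamma-delta T cells (r = 0.53, rho = 0.51). It ran opposite to monocytes (r = -0.66, rho = -0.60), basophils and mast cells (r = -0.57, rho = -0.58), erythroid cells (r = -0.53, rho = -0.57), neutrophils (r = -0.48, rho = -0.45) and B cells (r = -0.43, rho = -0.42). All scores come from the same 20 libraries as the eigengene, so they share their composition. Without the 2 cows farthest from the median score, r was 0.54 for T cells, 0.65 for CD8 T cells, 0.38 for gamma-delta T cells and -0.51 for monocytes. It was -0.25 for neutrophils, -0.24 for B cells, -0.45 for erythroid cells and -0.61 for basophils and mast cells.

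Within the T lineage the lists differed. Of the 19 T cell markers, 18 correlated positively with the eigengene, from CD5, an inhibitory coreceptor, at -0.08 to CD3G, a chain of the CD3 complex, at 0.76. CD8A stood at 0.67 and CD8B at 0.45. Of the 6 gamma-delta markers, WC1 was highest at 0.65 and WC1-12 lowest at -0.05. The list of naive and central memory T cells had r = -0.03, and that of CD4 helper and regulatory cells 0.16 (0.011 with the 47.4 kg calf's recipient left out), with CD40LG at 0.57 and CXCR5 at -0.41. All 7 monocyte markers correlated negatively, with VCAN at -0.32. NK and cytotoxic markers spread from KLRB1 at -0.64 to EOMES at 0.60, with a score correlation of 0.36.

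The defining markers were present in all cows: the 19 T cell markers summed to 2499.7 to 3469 CPM, the 2 CD8 genes to 37.4 to 115 CPM, the 6 gamma-delta genes to 70.4 to 211 CPM and the 7 monocyte markers to 1268 to 2051 CPM. CD3G ran from 59.6 to 108 CPM with a median of 80.1.

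**Figure D4:**
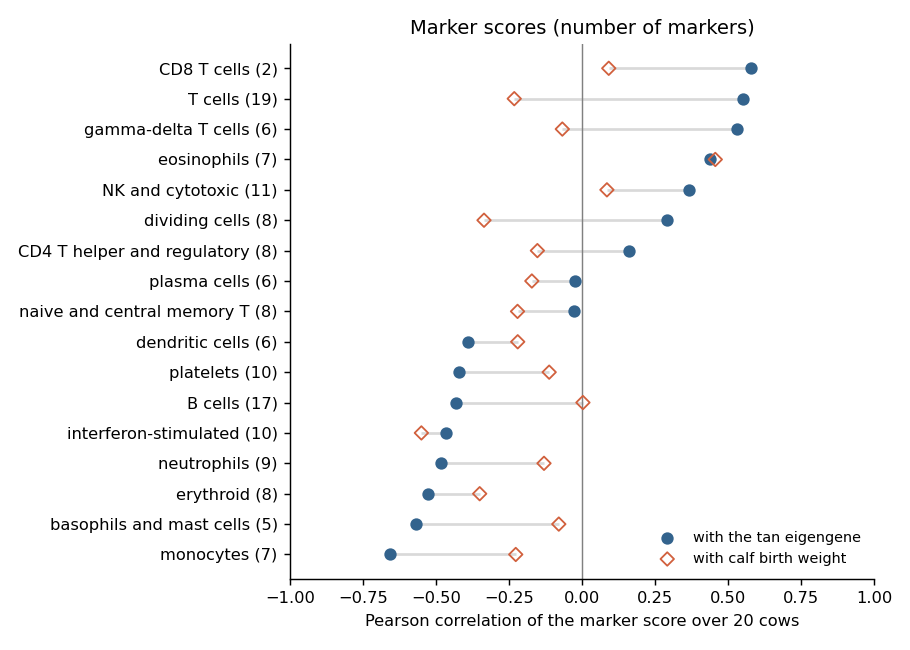
Pearson correlation over 20 cows of 17 marker scores with the tan eigengene (filled circles) and with calf BW (open diamonds), with the number of markers in brackets and lists sorted by the first. T cell, CD8 and gamma-delta scores sit at 0.53 to 0.58 with the eigengene and between -0.23 and 0.09 with BW.

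Member by member the pattern was broad. The median correlation of the 115 tested members was 0.36 with the T cell score, 0.35 with the CD8 score, 0.33 with the gamma-delta score and -0.40 with the monocyte score, against 0.00, 0.00, 0.00 and -0.02 over all tested genes. The correlation was above 0.5 for 28 members with the T cell score, for 30 with the CD8 score and for 18 with the gamma-delta score, against 4.07%, 2.41% and 2.31% of all tested genes. With the NK score it was above 0.5 for 7 members, against 3.15%, and with the eosinophil score for 18, against 8.47%. It was below -0.5 with the monocyte score for 37 members, against 7.5% of all tested genes. Since members were chosen to move together, these counts are 1 pattern seen many times.

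The members nearest the T cell score were LOC100336282 at r = 0.74, SLC7A6 at 0.72, LSM8 at 0.68, TRGC3 at 0.67, PRKAR2B, a regulatory subunit of protein kinase A, at 0.67, MAF at 0.66 and TOX2, an HMG-box transcription factor, at 0.66. Nearest the CD8 score was the non-coding LOC104971984 at 0.81. PPP2R5C ran most strongly against monocytes, at -0.88, beside 0.22 with T cells. Among 17 lists, 67 members correlated best with the pooled T, CD8 or gamma-delta lists and 30 with the eosinophil list. The latter has 14 names, of which 7 were tested. The best correlation had no lower bound and fell to 0.21 within the 67 and to 0.27 within the 30. Matching shares over all tested genes were not computed, so the 67 and the 30 do not measure membership of a lineage. WWP1, ZMYND11 and MDM2 were among those 30. So was LOC751788 of the WC1 cluster, at 0.61 beside 0.16 with the gamma-delta score and 0.20 with the T cell score. KIR2DS1 was too, at 0.66 beside 0.55 with the NK score. KIR3DS1 correlated best with the CD8 score, at 0.67 beside 0.54 with the NK score. LOC112446753 of the WC1 cluster correlated best with the CD4 list, at 0.615 beside 0.33 with the gamma-delta score. For 24 of the 30 the highest cow was that of the 56 kg calf, against 8 of the 67, and their median correlation was -0.64 with monocytes and 0.21 with T cells, against -0.38 and 0.42 in the 67. That cow had the lowest monocyte score, -2.01, and a T cell score of 0.154. The genes of this paragraph beyond the listed hubs were named after their values were seen.

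**Figure D5:**
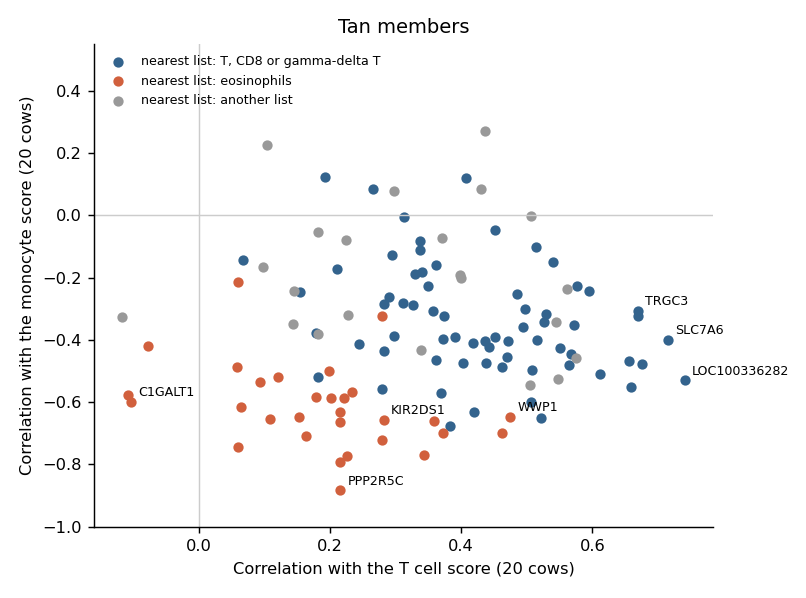
Correlation of each of the 119 members with the T cell score (horizontal) and the monocyte score (vertical) over 20 cows, coloured by the marker list each member correlates with best. LOC100336282 and SLC7A6 lie at the right, PPP2R5C at the bottom at -0.88, and the members nearest the eosinophil list lie low and towards the left.

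The relation of the module to calf BW was the reason for its choice. The eigengene and BW correlated with r = 0.49 and rho = 0.49 over 20 cows. The T cell, CD8 and monocyte scores were tested against BW themselves, and none passed. The T cell score correlated with BW at r = -0.23 (rho = -0.16, permutation p = 0.32 and 0.51, adjusted p = 0.73 and 0.70 over 17 lists), the CD8 score at 0.09 (rho = 0.16, permutation p = 0.70 and 0.50, adjusted p = 0.82 and 0.70) and the monocyte score at -0.23 (rho = -0.15, permutation p = 0.33 and 0.54, adjusted p = 0.73 and 0.70). Without the 2 farthest cows these were -0.21, 0.43 and -0.09. With the T cell score held fixed, the partial correlation of eigengene and BW was 0.76, an alternative chosen after seeing the data.

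The scores with the largest correlations with BW were those of eosinophils and of interferon-stimulated genes. The eosinophil score correlated with BW at r = 0.46 (rho = 0.52, permutation p = 0.043 and 0.021, adjusted p = 0.37 and 0.18) and with the eigengene at r = 0.44 (rho = 0.38). Without its 2 farthest cows the former was 0.44 and the latter 0.16, and leaving out the 56 kg calf's recipient made the latter 0.29. The 7 tested eosinophil markers correlated with the eigengene from CEBPE at 0.24 to IL1RL1 at 0.69. Of the 14 listed, EPX, PRG2, PRG3, ADGRE1 and CLC were not matched to 1 gene, and CCR3 and ALOX15 failed the filter. The interferon-stimulated score correlated with BW at r = -0.55 (rho = -0.54, permutation p = 0.025 and 0.015, adjusted p = 0.37 and 0.18, r = -0.48 without 2 cows) and with the eigengene at r = -0.47 (rho = -0.60). Neither passed the adjustment. With the eosinophil score held fixed the partial correlation of eigengene and BW was 0.36, and with the interferon-stimulated score held fixed it was 0.31, the lowest over the 17 lists. The part of these scores in the module's relation to BW was not tested further.

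In the fit of each gene on BW over 19 cows, without that of the 72.5 kg calf, 99 of the 115 tested members had a positive slope, against 46.6% of all tested genes. The median slope was 0.0085 log2 per kg over members and -0.00072 over all tested genes. An unadjusted p below 0.05 in edgeR's quasi-likelihood test was reached by 28 members, against 13.9% of all tested genes, and 27 of them had a positive slope, against 6.78%. The 28 became 15 when the 56 kg calf's recipient was left out. No member passed a Benjamini-Hochberg FDR of 0.05 in edgeR, where 0 of 16206 genes did, and 2 did in DESeq2, where 1.22% of tested genes did. With the T cell score as a covariate 106 members had a positive slope, against 46.2% of all tested genes, 40 had an unadjusted p below 0.05, against 15.2%, and 0 passed an FDR of 0.05, against 0.037%. As the module was chosen on this relation, nothing further is read from these counts.

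The 2 genes passing in DESeq2 were AHCTF1, a nuclear pore assembly factor, and C1GALT1, the enzyme that extends mucin-type O-glycans with galactose. AHCTF1 ran from 217 CPM in the cow of the 30 kg calf through a median of 243 to 312 in that of the 56 kg calf, with a slope of 0.012 ± 0.0028 log2 per kg (SE, n = 19). C1GALT1 ran from 30.8 to 61.5 CPM with a median of 36.1 and a slope of 0.023 ± 0.0053. In C1GALT1 the cow of the 56 kg calf stood far above the next, at 45.2 CPM. With the T cell score AHCTF1 had r = -0.08 and C1GALT1 r = -0.10. With the eosinophil score, the one each correlated with best, AHCTF1 had r = 0.49 and C1GALT1 r = 0.63. That score itself rose with BW, so these values follow in part from how the 2 genes were picked.

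At an FDR below 0.1 AHCTF1 was the 1 member in edgeR, against 0.315% of all tested genes, and DESeq2 had 8, against 2.93%. The further 6 were PDE4D, TMEM50B, EEIG2, KIR2DS1, STARD4 and LOC101902458. In that order they had r = 0.65, 0.64, 0.68, 0.66, 0.44 and 0.31 with the eosinophil score. It was the nearest score for each of them but LOC101902458. The eosinophil score itself correlated with BW at r = 0.46, so these values follow in part from how the 8 were picked. All 8 except KIR2DS1 also peaked in the 56 kg calf's recipient. Their correlations with the score without that animal were not tested. PDE4D had a slope of 0.014 ± 0.0043, TMEM50B 0.015 ± 0.0046 and EEIG2 0.016 ± 0.0047 log2 per kg. The slope was 0.047 ± 0.016 for KIR2DS1, 0.035 ± 0.011 for STARD4, a sterol carrier, and 0.052 ± 0.016 for the non-coding LOC101902458. STARD4 ran from 10.97 CPM in the cow of the 30 kg calf through a median of 15.2 to 38.9 in that of the 56 kg calf, and its slope without the latter was 0.022.

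The largest slopes belonged to sparsely counted genes. TNC, an extracellular matrix protein, had 0.10 ± 0.045 with a median of 0.121 CPM, LOC112445516 had 0.092 ± 0.040 and CRACD, a regulator of actin capping, 0.080 ± 0.038. The smallest were those of CELF4 at -0.13 ± 0.046, C1S, a complement protease, at -0.071 ± 0.072, and LOC132342103 at -0.041 ± 0.030. The highest median CPM among these 6 was 6.69. Leaving out the 32 kg calf's recipient gave LOC132342103 a slope of 0.012, leaving out the 30 kg calf's gave CELF4 -0.014 and leaving out the 56 kg calf's gave CRACD 0.022. The slope of TNC reached 0.16 and that of CRACD 0.12 when the 32 kg calf's was left out, and that of C1S ran from -0.11 with the 46 kg calf's left out to -0.042 with the 38 kg calf's left out.

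The 7 members nearest the T cell score had slopes that were each smaller than their SE. LOC100336282 had 0.0020 ± 0.0046, SLC7A6 -0.0023 ± 0.0048, LSM8 0.00095 ± 0.0062 and TRGC3 0.017 ± 0.019 log2 per kg. PRKAR2B had 0.0056 ± 0.0071, MAF 0.0023 ± 0.0056 and TOX2 0.0096 ± 0.0098. Of the other T cell members, THEMIS had -0.00092 ± 0.0062. ICOS had 0.0078 ± 0.0070, CD84 0.0053 ± 0.0049, CCR9 0.0070 ± 0.0075 and IKZF2 0.011 ± 0.0043. Outside the module, TRGC4 beside TRGC3 had 0.045 ± 0.013 and correlated with the eigengene at 0.61. The other tested constant regions of chromosome 4, TRGC6 and LOC781951, had -0.010 ± 0.013 and -3.4e-05 ± 0.012. Over the 67 members nearest the T, CD8 or gamma-delta list the median slope was 0.0069, with 57 of 66 tested positive. Over the 30 nearest the eosinophil list it was 0.013, with 28 of 28 tested positive. The eosinophil score itself correlated with BW at r = 0.46, so these signs follow in part from how the 30 were picked. For 24 of the 30 the highest cow was that of the 56 kg calf. Nothing further is read from the difference between the 2 groups. Across the 115 tested members, slope and correlation with the T cell score had r = -0.20 and rho = -0.40, across genes that are not independent. The T cell score itself correlated with BW at r = -0.23, so a negative relation follows in part from the score and is given as a description only.

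The other genes of the T cell pathways, tested in the same fit, gave no call at an FDR of 0.05 in edgeR or DESeq2. At an unadjusted p below 0.05 in edgeR, 1 of 14 costimulation and checkpoint genes beside ICOS had a positive and 1 a negative slope, and 2 of 9 SLAM family genes beside CD84 had a positive one. Of 18 genes of T cell receptor signalling 2 had a positive slope at that p, and of 19 cytokine receptor genes 1 had a positive and 1 a negative one. Of 19 transcription factors that are not members, 1 had a positive and 2 a negative slope. Of 7 amino acid transporters beside SLC7A6 and of 13 chemokine receptors and trafficking genes beside CCR9, 1 of each had a positive slope. Of all tested genes 6.78% had a positive and 7.08% a negative slope at that p. Their median correlation with the eigengene was 0.45 for T cell receptor signalling, 0.38 for the SLAM family and 0.31 for costimulation and 0.24 for transcription factors. It was 0.06 for cytokine receptors, -0.13 for chemokine receptors and -0.29 for amino acid transporters.

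Among the study's other modules tied to BW, the tan eigengene correlated with that of turquoise, 1089 genes, at r = 0.38, of royalblue, 32 genes, at -0.46 and of midnightblue, 97 genes, at -0.80, over the same 20 cows. The eigengene correlated at r = -0.06 with total count, at 0.08 with the share of mitochondrially encoded genes, 1.36 to 1.88% of counts, and at -0.07 with the share of ribosomal protein genes, 3.80 to 4.73%. The share of globin genes, 0.00464 to 0.108% of counts, correlated with it at r = -0.47 and rho = -0.58, and with BW at r = -0.37. Protein-coding members had long genes, with a median genomic span of 62320 bases over 98 tested members against 25845 over 14343 tested coding genes. Over those coding genes, span and correlation with the eigengene had rho = 0.25. The parts of globin and gene length in the module's values were not tested.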

How the data were processed

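The authors deposited 1 table of raw gene counts per cow: reads were trimmed with Trimmomatic, aligned with STAR 2.7.0b to bosTau9 (index ARS-UCD1.3) and counted with featureCounts of Subread 2.0.3, after checks with FastQC 0.11.9. The strand setting was not given in the sources used here, and the labels and the study's methods name different stranded kits. Identifiers were matched to symbols with an ARS-UCD2.0 gene table (37063 of 37063).

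Counts were scaled by TMM (edgeR 4.0.16, R 4.3.3) for CPM and transformed with DESeq2 1.42.0 for the eigengene and marker scores (Python 3.11.15). Slopes on calf BW came from edgeR's quasi-likelihood test over 19 cows and 16206 genes (10 or more counts in 5 or more cows), with DESeq2 and limma 3.58.1 as alternatives. Slope fits were tested on simulated data in which 200 of 16206 genes changed by 0.06 log2 per kg. There edgeR recovered 85% of them, with 5.03% of its calls false, and DESeq2 90.5%, with 14.6% false. The members' median slope was 0.0085, so these recovery rates do not apply to slopes of that size. Scores against BW used two-sided permutation tests with 100000 resamples and Benjamini-Hochberg adjustment over 17 lists.

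Named members were the 10 highest and 5 lowest in kME, the 5 highest in CPM, the 3 largest and 3 smallest slopes, those with FDR below 0.1, and those in a marker or pathway list. Receptor-cluster genes, KCNA3 and members named for their lineage were added after their values were seen. Members and lists were chosen with earlier results of these data known. Each cow is a separate animal with 1 library, and neither labels nor files name batches. Promoter sequence was not analysed here. Results for some genes that this rule names are not reported here.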

Additional observations from a re-analysis of the deposited data

How the results depend on the processing

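The count of members at an FDR below 0.05 was 0 in edgeR and became 2 with DESeq2 and 2 with every gene of any count tested, and ran from 0 to 1 when single cows were left out. Members with an unadjusted p below 0.05 ran from 19 to 40 over the other fits and from 15, without the cow of the 56 kg calf, to 39, without that of the 50 kg calf, members with a positive slope from 91 to 106 and the median slope from 0.0067 to 0.011 as single cows were left out. The eigengene correlated with BW at 0.31 to 0.76 over the alternatives, with 0.31, 0.65 and 0.76 when the interferon-stimulated, dividing cell and T cell scores were held fixed (chosen, like the other hub measures, after seeing the data), at 0.37 without the cows of the 72.5 and 30 kg calves, and at 0.43 to 0.56 without single cows. Against marker scores, leaving out single cows gave 0.49 to 0.64 for T cells, 0.52 to 0.66 for CD8 T cells, 0.44 to 0.63 for gamma-delta T cells, 0.30 to 0.51 for NK cells, 0.29 to 0.53 for eosinophils (lowest without the cow of the 56 kg calf), 0.011 to 0.27 for CD4 cells, -0.12 to 0.11 for naive T cells, -0.24 to 0.092 for plasma cells, 0.13 to 0.39 for dividing cells, -0.72 to -0.55 for monocytes, -0.61 to -0.37 for neutrophils, -0.66 to -0.49 for basophils, -0.50 to -0.34 for B cells, -0.47 to -0.33 for dendritic cells, -0.47 to -0.35 for platelets, -0.59 to -0.43 for erythroid cells and -0.52 to -0.43 for interferon-stimulated genes. The first principal component of the markers gave 0.59 for NK cells and -0.20 for dendritic cells, and Spearman gave -0.60 for interferon-stimulated genes; the cause was not tested. The 10 hubs shared 8 to 9 genes with the first 10 under other measures and 6 to 10 without single cows. Of 1008 refitted slopes of 36 named members, 991 stayed within 1 SE and 22 took the other sign, among them slopes of THEMIS, ARAP2, FBXL16, LOC132342103, MAF and SLC7A6. Depth limits members with a median below 1 CPM. The planned promoter motif counts and levels per exon length were not run.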
